A study of Mus musculus with 15 samples.

Results

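The 7 genes described here, Akr1c6, Akr1c12, Akr1c13, Akr1c14, Akr1c18, Akr1c19 and Akr1c20, encode aldo-keto reductases of the AKR1C subfamily, and they were followed in mouse liver among 18193 genes measured on Affymetrix arrays. They were chosen by name, with the liver values of Akr1c18 in KKAy and C57BL/6J mice already known. All 8 probe sets that carry 1 of these symbols alone were used. The 15 arrays each came from the liver of 1 male mouse, with 5 arrays per group. The XKA group was KKAy mice on a high-fat diet that received Xiao-Ke-An, a Chinese medicine made from several herbs, by daily gavage at 1.5 g/kg for 32 days. The Model group was KKAy mice on the same diet that received distilled water. The Normal group was C57BL/6J mice on chow that received distilled water. Treatment began at 10 weeks of age. KKAy mice carry the yellow agouti allele and are a model of obesity with type 2 diabetes. KKAy and C57BL/6J mice differed in strain, diet and supplier at once, so these cannot be told apart in any difference from the Normal group. Signals are on a linear scale with the median of each array set to 1000, and log2 differences are between group means of log2 signals.

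AKR1C enzymes use NADPH or NADH to reduce ketone groups on steroids and other carbonyl compounds, or to run the reverse oxidation. In liver they act with the reductases of the steroid A ring and with sulfate and glucuronide conjugation to inactivate and clear steroid hormones. Mouse Akr1c18 is the 20-alpha-hydroxysteroid dehydrogenase that inactivates progesterone, best known from the ovary. Akr1c14 is a 3-alpha-hydroxysteroid dehydrogenase, and Akr1c6 is a liver 17-beta-hydroxysteroid dehydrogenase. Akr1c12, Akr1c13, Akr1c19 and Akr1c20 are related reductases.

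In the RefSeq gene table of GRCm38.p6, the 7 genes follow each other on chromosome 13, with no other measured gene between them, in the order Akr1c14, Akr1c18, Akr1c13, Akr1c19, Akr1c12, Akr1c6 and Akr1c20. RefSeq promoter windows were given for 6 of the 7 members, each covering 250 bases before and 50 bases after the start. The windows of Akr1c18 and Akr1c12, whose signals separated KKAy from C57BL/6J livers, are shown with those of Akr1c13 and Akr1c19, which resemble that of Akr1c12. They are chr13:4150597-4150896 on the minus strand for Akr1c18, chr13:4279350-4279649 on the minus strand for Akr1c12, chr13:4190937-4191236 on the plus strand for Akr1c13 and chr13:4233490-4233789 on the plus strand for Akr1c19. Each is printed 5′ to 3′ along its gene, with every CATTAG match in capitals.
Akr1c18: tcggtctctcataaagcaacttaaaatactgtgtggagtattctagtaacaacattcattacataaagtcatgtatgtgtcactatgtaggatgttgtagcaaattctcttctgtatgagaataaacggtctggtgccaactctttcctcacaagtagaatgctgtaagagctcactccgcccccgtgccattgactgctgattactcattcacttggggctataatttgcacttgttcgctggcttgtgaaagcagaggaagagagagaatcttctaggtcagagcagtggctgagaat
Akr1c12: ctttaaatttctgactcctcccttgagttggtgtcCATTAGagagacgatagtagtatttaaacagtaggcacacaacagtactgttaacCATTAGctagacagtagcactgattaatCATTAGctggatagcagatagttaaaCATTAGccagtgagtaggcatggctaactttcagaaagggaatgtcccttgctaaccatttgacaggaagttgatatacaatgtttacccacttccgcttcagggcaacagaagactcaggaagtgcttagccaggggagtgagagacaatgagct
Akr1c13: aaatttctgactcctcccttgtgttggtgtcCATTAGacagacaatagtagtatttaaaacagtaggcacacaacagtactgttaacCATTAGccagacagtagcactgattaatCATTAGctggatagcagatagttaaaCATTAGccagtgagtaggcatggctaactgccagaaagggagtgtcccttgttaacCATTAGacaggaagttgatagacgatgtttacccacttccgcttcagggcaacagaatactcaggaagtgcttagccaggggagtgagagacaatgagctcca
Akr1c19: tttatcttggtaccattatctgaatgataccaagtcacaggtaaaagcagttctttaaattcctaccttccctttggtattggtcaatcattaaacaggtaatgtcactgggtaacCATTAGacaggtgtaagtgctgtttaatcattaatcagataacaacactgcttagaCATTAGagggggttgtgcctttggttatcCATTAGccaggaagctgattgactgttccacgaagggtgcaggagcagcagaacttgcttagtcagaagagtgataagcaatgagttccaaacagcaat
The Akr1c12 and Akr1c13 windows were 95.9% identical over 284 of 296 aligned bases. The Akr1c19 window was 74.1% identical to that of Akr1c12 and 70.6% to that of Akr1c13. All other pairs among the 6 windows lay between 60.1% and 66.8%.

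The motif CATTAG was picked after these sequences had been read, and both strands were searched. It occurred 5 times in the Akr1c13 window, 4 times in that of Akr1c12, 3 times in that of Akr1c19 and 1 time in that of Akr1c6. The windows of Akr1c14 and Akr1c18 held no match. Among all 32851 windows of this length in the table, 7.36% held at least 1 match and 0.0274% held 3 or more. These 9 windows with 3 or more included those of Akr1c12, Akr1c13 and Akr1c19. These are reference sequences, and the KKAy sequence was not analysed here. TGACNNNGC, the core of the antioxidant response element, was found in the Akr1c19 window and in 12.4% of all windows. TATAAA was found in the Akr1c6 window and in 13.6% of all windows.

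The 20-alpha-hydroxysteroid dehydrogenase Akr1c18 separated the KKAy livers from the C57BL/6J livers. Its scaled signals were 20956, 35391, 19725, 46215 and 53405 in the XKA group, 89570, 75857, 40758, 79186 and 50146 in the Model group, and 168, 61, 135, 839 and 804 in the Normal group. All 10 KKAy livers were far above the array median, while all 5 Normal livers were below it. The Normal signals stood between the 5.9th and the 45.7th percentile of their arrays. No detection calls came with the values, so a Normal signal under the array median is read only as a bound. With the array median as the floor, Akr1c18 was at least 32.5-fold higher in XKA and at least 64.3-fold higher in Model than in Normal livers. These differences chose the genes and carry no test. Akr1c18 was the 1 member of 7 that lay above Normal livers without overlap, while 8.19% of all genes did so between Model and Normal livers and 5.04% between XKA and Normal livers.

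Within KKAy, Akr1c18 averaged 35138 ± 14960 in the XKA group and 67103 ± 20670 in the Model group (SD, n = 5 each). XKA livers 1, 2 and 3 lay below the lowest Model liver, and the groups overlapped in the other two. The log2 difference of XKA minus Model was -0.99 with a standard error of 0.54 and a 95% interval of -2.12 to 0.15. In limma it did not pass, with an unadjusted p of 0.0851 and an adjusted p of 0.653 over all 18193 genes. The standard error and interval use the spread of all 3 groups, with the Normal signals that lie below the array median. On the log2 scale, Akr1c18 deviated from its group mean by -2.02 to 1.76 in Normal livers. The range was -0.72 to 0.72 in the 10 KKAy livers, so the interval does not measure their spread alone. The exact two-sided permutation test of these 10 livers alone gave p = 0.0397, where 0.00794 is the smallest possible. It is 1 of 7 such tests, 1 for each member. Dunnett's test, the test of the methods, gave an unadjusted p of 0.00925 and an adjusted p of 0.539. It used linear signals and also pools the spread of all 3 groups, where the SD of the Normal group was 386. The p-values of these tests thus rest on different scales and errors and are not alike.

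The reverse rate, the share of the mean difference between Model and Normal livers that is absent in XKA livers, was 0.479 for Akr1c18. It ran between 0.421 and 0.548 when each liver was left out in turn. It rests on the difference from Normal livers that chose the gene and on the XKA difference that did not pass, so it is given as a description. For the other members it was 1.48 for Akr1c6, 0.145 for Akr1c12, -0.231 for Akr1c13, -1.25 for Akr1c14, -0.983 for Akr1c19 and 0.332 for Akr1c20. Where the rate is negative, the XKA mean lay further from the Normal mean than the Model mean did. With single livers left out, it ran between 0.35 and 5.05 for Akr1c6 and changed sign for Akr1c12 and Akr1c20.

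**Figure D1:**
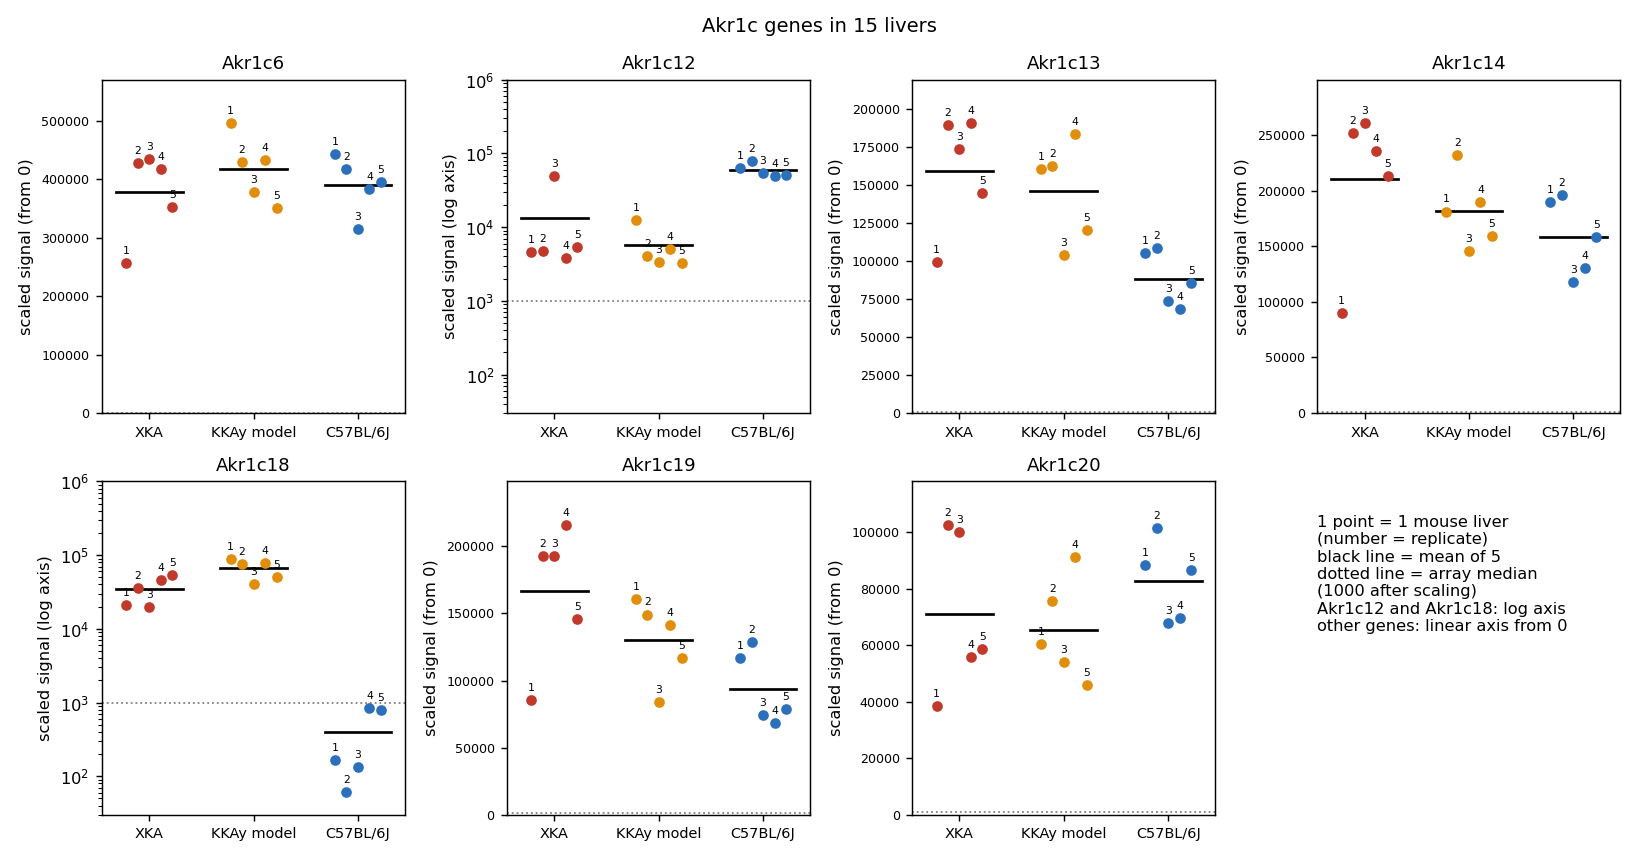
Scaled signal of each Akr1c gene by group, with 1 point per mouse liver numbered by replicate, a black line at the mean of 5 and a dotted line at the array median of 1000. The axis is logarithmic for Akr1c12 and Akr1c18 and linear from 0 for the other genes. Akr1c18 lies below 1000 in all 5 Normal livers and at 19725 or more in the KKAy livers, and Akr1c12 is at 12618 or less in 9 of 10 KKAy livers.

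Akr1c12, a reductase next to Akr1c6 on the chromosome, ran the other way. Its scaled signals were 4579, 4694, 48662, 3858 and 5445 in the XKA group, 12618, 4060, 3337, 5003 and 3240 in the Model group, and 63258, 78437, 54778, 49461 and 51663 in the Normal group. Every KKAy liver was below every Normal liver, but XKA liver 3 came close to the lowest of them. Against Normal, the log2 difference was -2.99 for XKA and -3.59 for Model (SE 0.51 for both). Without XKA liver 3 the first of these was -3.67. The mean signal in Model livers was 0.095 of that in Normal livers. Akr1c12 was the 1 member of 7 that lay below Normal livers without overlap, beside 1.99% of all genes between XKA and Normal livers and 2.38% between Model and Normal livers.

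XKA liver 3 was 10.5 times the median of the other XKA livers in Akr1c12. The 4 others averaged 4644 ± 650 (SD). In this liver, Akr1c12 stood 1.95 on the log2 scale above the highest of the other 9 KKAy livers. Among 12104 genes with a mean above the array median, this gap ranked first for that liver, and 3 of these genes exceeded the other KKAy livers by at least 1 on that scale. Model liver 1, at 12618, was also apart from the other Model livers, which lay between 3240 and 5003. Between XKA and Model livers the log2 difference of Akr1c12 was 0.60 (SE 0.51, adjusted p = 0.799 with limma, exact permutation p = 0.5). Without XKA liver 3 it was -0.08 (adjusted p = 0.961 with limma), so its sign rested on that liver.

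Akr1c13, the member whose promoter window was nearly the same as that of Akr1c12, was not low in KKAy liver. Its scaled signals were 99213, 189378, 173372, 190470 and 144388 in XKA livers, 160317, 162162, 104158, 183220 and 120241 in Model livers, and 105221, 108598, 73337, 68648 and 85731 in Normal livers. In both KKAy groups, 4 of 5 livers were above the highest Normal liver. The log2 difference from Normal was 0.84 in XKA and 0.72 in Model livers (SE 0.20 for both). It was 0.68 in XKA and 0.53 in Model livers with the values as deposited. Between XKA and Model livers Akr1c13 differed by 0.12 (SE 0.20, 95% interval -0.29 to 0.53, adjusted p = 0.922 with limma).

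A further probe set is annotated to Akr1c12 and Akr1c13 together and was given to neither gene. It averaged 195195 ± 53064 in XKA, 167900 ± 38392 in Model and 150169 ± 22531 in Normal livers (SD, n = 5 each). Its log2 difference from Normal was 0.34 for XKA and 0.14 for Model livers. The low KKAy signal was thus seen on the Akr1c12 probe set alone and not on the shared one. As Akr1c13 had higher means in both KKAy groups, a probe set that reads both genes need not fall with Akr1c12. Transcripts of similar genes can bind each other's probes, and neither transcript nor probe sequences were compared here. The split of signal between Akr1c12 and Akr1c13 is thus uncertain.

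**Figure D2:**
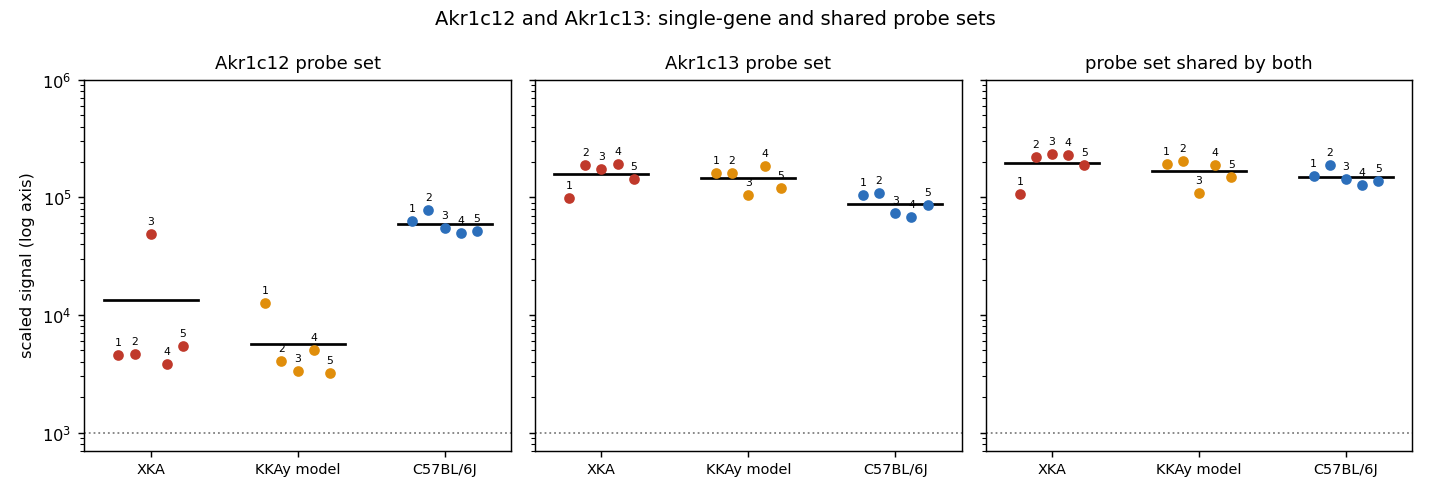
Scaled signal on a logarithmic axis for the Akr1c12 probe set, the Akr1c13 probe set and the probe set annotated to both, with 1 numbered point per liver, the mean of 5 as a black line and the array median as a dotted line. The Akr1c12 probe set is at 12618 or less in 9 of 10 KKAy livers, with XKA liver 3 at 48662, while the other probe sets overlap between KKAy and Normal livers.

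Akr1c19 had scaled signals of 85145, 192635, 192806, 215897 and 146152 in XKA livers, 160695, 149162, 83725, 141104 and 116635 in Model livers, and 116574, 128727, 74246, 68465 and 78841 in Normal livers. Of 5 livers, 4 in the XKA group and 3 in the Model group were above the highest Normal liver, and both KKAy groups overlapped the Normal group. The log2 difference from Normal was 0.81 in XKA and 0.49 in Model livers (SE 0.24 for both). The Model value was 0.30 on the deposited scale and 0.31 under quantile normalization. Between XKA and Model livers it was 0.32 (SE 0.24, 95% interval -0.19 to 0.83, adjusted p = 0.759 with limma).

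The 3-alpha-hydroxysteroid dehydrogenase Akr1c14 had scaled signals of 89758, 251346, 260490, 235526 and 212859 in XKA livers, 181159, 232253, 145363, 189468 and 158780 in Model livers, and 189552, 196021, 118183, 129979 and 158672 in Normal livers. XKA liver 1 was below all other livers, and the other 4 XKA livers were above every Normal liver. In the Model group, 4 of 5 livers lay within the Normal range. The log2 difference of XKA minus Model was 0.14 (SE 0.24, 95% interval -0.37 to 0.64, adjusted p = 0.924 with limma). Without XKA liver 1 it was 0.42 with an adjusted p of 0.408. The difference from Normal was 0.34 for XKA, or 0.62 without XKA liver 1, and 0.20 for Model livers. The Model value was 0.01 with the values as deposited.

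The 17-beta-hydroxysteroid dehydrogenase Akr1c6 was nearly level across the groups. Its signals averaged 377333 ± 75239 in XKA, 417188 ± 55925 in Model and 390213 ± 48528 in Normal livers (SD, n = 5 each). The values ran between 255730 and 433515 in XKA livers, between 350069 and 495495 in Model livers and between 313894 and 442871 in Normal livers, so all 3 groups overlapped. The log2 difference of Model minus Normal was 0.10 (SE 0.17), but -0.10 on the deposited scale and -0.12 under quantile normalization. XKA minus Model was -0.16 (SE 0.17, 95% interval -0.52 to 0.20, adjusted p = 0.851 with limma).

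Akr1c20 has 2 probe sets. On the brighter one, signals were 38636, 102575, 100229, 55960 and 58620 in XKA livers, 60491, 75645, 54046, 91195 and 45807 in Model livers, and 88537, 101402, 67802, 69605 and 86765 in Normal livers. In both KKAy groups 3 of 5 livers lay below the lowest Normal liver, and the groups overlapped. The log2 difference from Normal was -0.30 for XKA and -0.37 for Model livers (SE 0.24 for both). On the deposited scale it was -0.46 for XKA and -0.56 for Model, and without XKA liver 1 the XKA value was -0.10. The other probe set averaged 2984 ± 475 in XKA, 2779 ± 686 in Model and 4240 ± 932 in Normal livers (SD, n = 5 each), with differences from Normal of -0.49 for XKA and -0.61 for Model. Both probe sets thus had lower means in KKAy than in Normal livers. Between XKA and Model livers the brighter probe set differed by 0.07 (SE 0.24, 95% interval -0.42 to 0.56, adjusted p = 0.967 with limma).

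**Figure D3:**
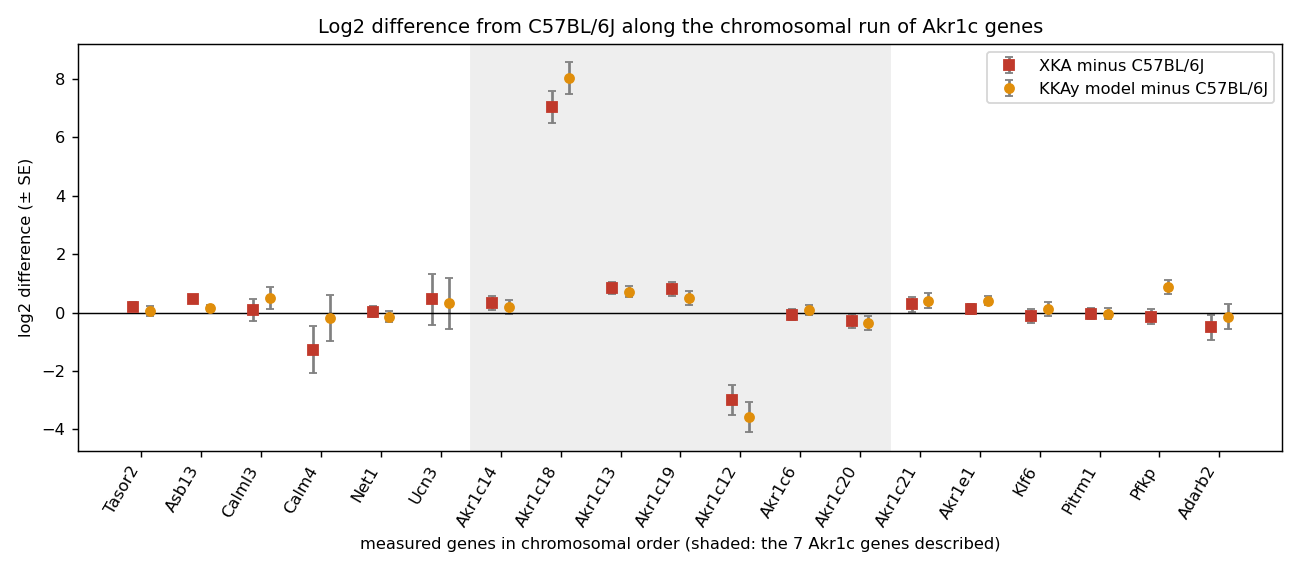
Log2 difference from the C57BL/6J Normal group for XKA livers (squares) and Model livers (circles), with the standard error as bars, for the measured genes in their chromosomal order and the 7 Akr1c genes shaded. Akr1c12 is at -2.99 for XKA and -3.59 for Model, and the genes other than Akr1c12 and Akr1c18 lie between -1.27 and 0.88. The Akr1c18 points rest on Normal signals below the array median and are not sizes, so only the bounds of at least 32.5-fold for XKA and 64.3-fold for Model are read.

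The 2 members that separated KKAy from C57BL/6J livers were thus not adjacent. Between Akr1c18 and Akr1c12 lie Akr1c13 and Akr1c19, which overlapped between Model and Normal livers. The 6 measured genes before the members and the 6 after them were set beside the run. Of these 12, Pfkp, a phosphofructokinase of glycolysis, was higher in Model than in Normal livers (log2 difference 0.88, SE 0.25, adjusted p = 0.0263 with limma), and 0 were lower. Over all genes 13.0% were called between Model and Normal livers. Between XKA and Normal livers 1 of the 12, Asb13, was higher (0.46, adjusted p = 0.00704), beside 7.48% called over all genes. Akr1c21, the nearest further AKR1C gene and a 3(17)-alpha-hydroxysteroid dehydrogenase of mouse kidney, did not pass, with 0.28 for XKA and 0.40 for Model against Normal (adjusted p = 0.629 for XKA and 0.369 for Model).

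Whether XKA changed the AKR1C genes in KKAy liver was asked with the same fit. Of the 7 members 0 were called at an adjusted p under 0.05 in limma and 0 had an unadjusted p under 0.05, beside 0.176% called and 8.61% at an unadjusted p under 0.05 over all genes. Dunnett's test on linear signals gave 1 member unadjusted and 0 after adjustment, beside 5.84% of all genes unadjusted and 1 gene after adjustment. No member separated XKA from Model livers without overlap, as 1.42% of all genes did. Akr1c12, Akr1c13, Akr1c14, Akr1c19 and Akr1c20 had higher log2 means in XKA than in Model livers, and Akr1c6 and Akr1c18 lower ones. The limma intervals allow changes of either sign for every member, and that of Akr1c18 includes the spread of its Normal signals below the array median.

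**Figure D4:**
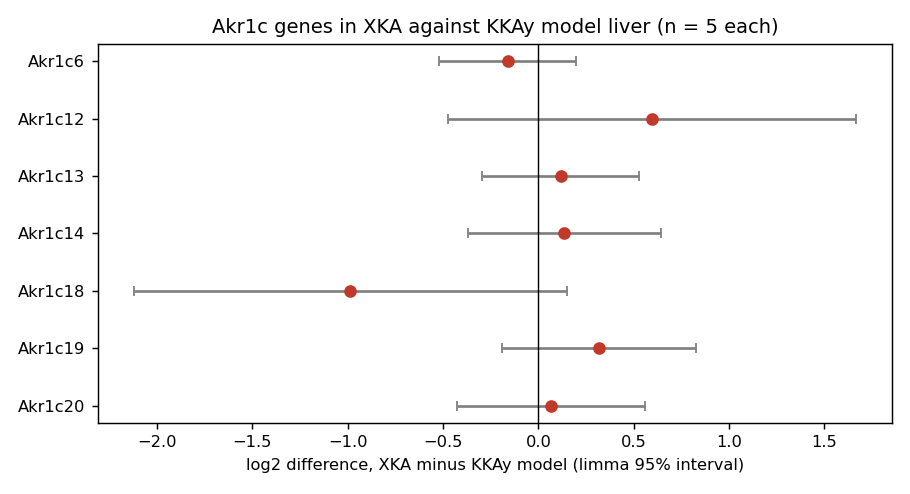
Log2 difference of XKA minus Model for each Akr1c gene, with its 95% interval from limma (n = 5 livers per group). Every interval crosses 0, and that of Akr1c18, from -2.12 to 0.15, reaches furthest below it. The intervals use the spread of all 3 groups, which for Akr1c18 includes Normal signals below the array median.

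Within the KKAy groups, several members went up and down together from liver to liver. Over the 10 KKAy livers, each set against its group mean, Pearson's r was 0.951 between Akr1c13 and Akr1c19, 0.911 between Akr1c6 and Akr1c19, and 0.896 between Akr1c14 and Akr1c19. Spearman's rho for these pairs was 0.721, 0.903 and 0.685. Akr1c12 had r between -0.217 and 0.492 with the other members, and Akr1c18 between -0.217 and 0.606. These are descriptions over 10 livers that share 1 scaling per array. The pairs named first had the highest r among the members, and pairs of genes outside the members were not compared. XKA liver 1 was the furthest below its group mean for Akr1c6 (-0.54), Akr1c13 (-0.64), Akr1c14 (-1.13) and Akr1c19 (-0.90), which weighs on these r values.

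In XKA liver 1 and Model liver 3 all 7 members were below their group mean. XKA liver 1 held the lowest value of its group for 5 members, Akr1c6, Akr1c13, Akr1c14, Akr1c19 and Akr1c20, and Model liver 3 for 4, Akr1c13, Akr1c14, Akr1c18 and Akr1c19. A list of 8 acute phase genes, chosen after the values were seen, was 1.36 above its group mean on the log2 scale in XKA liver 1 and 1.10 above it in Model liver 3. Its summed signal was 4330822 in XKA liver 1 and between 1170768 and 3219777 in the other XKA livers. Model liver 5 also had all 7 members below the mean, with the acute phase list at -0.63, and XKA liver 2 had 1 member below, with the list at 0.83. The part of the acute phase genes in the member values was not tested. The low values were not confined to the members. In XKA liver 1, the steroid enzymes Akr1d1 and Hsd17b6 were at 29880 and 50405, against 60982 and 147506 or more in the others. In Model liver 3, they were at 18693 and 84122, against 46172 and 121087 or more in the others. Akr1b8, at 5047 and 5615 in these livers, was not low. These genes were chosen after the values were seen, and the share of all genes this low was not counted.

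Without XKA liver 1 and Model liver 3, the XKA minus Model difference was 0.34 for Akr1c14 (SE 0.18, unadjusted p = 0.0665, adjusted p = 0.638) and 0.39 for Akr1c19 (SE 0.20, unadjusted p = 0.0612, adjusted p = 0.627) in limma. Akr1c18 was at -0.99 (SE 0.61) without them. No member passed in this setting either. The livers left out stood out in the member values themselves, so these p-values are not independent of that choice and are given as a description. Model liver 5, where all 7 members were also below the mean, was kept.

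**Figure D5:**
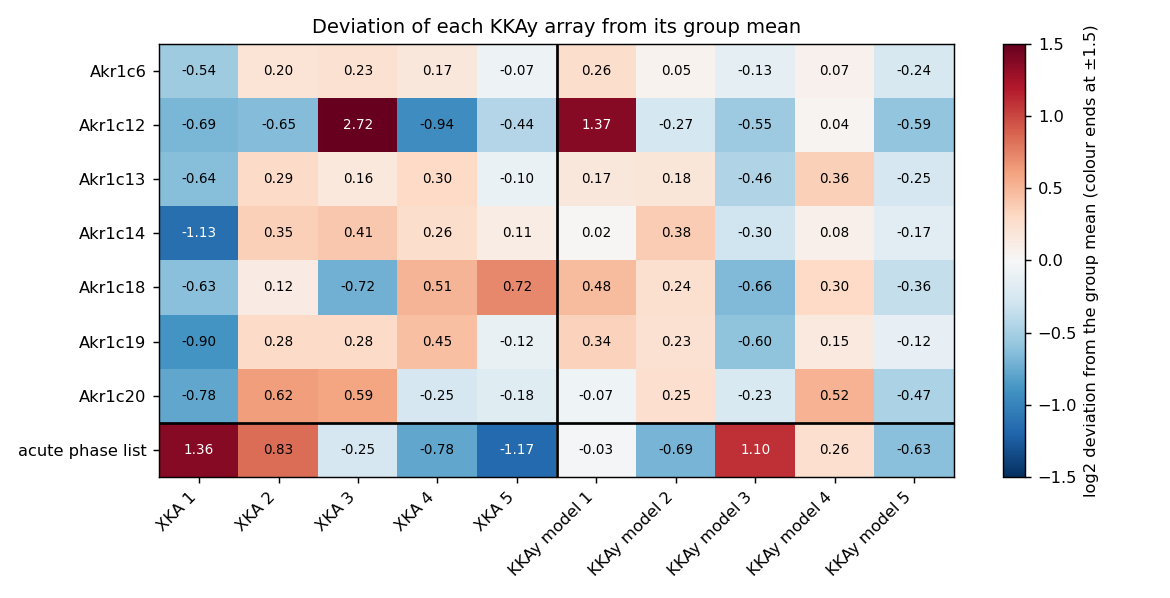
Log2 deviation of each KKAy liver from the mean of its own group, for the 7 Akr1c genes and for the mean of 8 acute phase genes (bottom row), with red above and blue below the group mean and colours ending at 1.5 either side. XKA liver 1 and Model liver 3 are below the mean for every Akr1c gene, with the acute phase list at 1.36 and 1.10.

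The genes whose signals were most like Akr1c18 were ranked by Pearson's r over the 15 arrays among 11628 genes, a measure set mostly by the gap between KKAy and C57BL/6J. They were Sdr9c7, a short-chain dehydrogenase (r = 0.967), Gstp3, a glutathione transferase of the pi class (0.959), Abhd1, a hydrolase-fold protein (0.958), Cap2, an actin-binding protein (0.957), and the pseudogene Ube2d-ps (0.956), whose signal is uncertain because functional genes resemble it. Gstp3 averaged 306785 in XKA, 339760 in Model and 3987 in Normal livers. Over the 10 KKAy livers set against their group means, the closest genes were Fam83g (0.923), Trmo (0.914), Nek8 (0.912), Ccng1 (0.903) and Gpr108 (0.900). Group means of Fam83g and Nek8 were 869 to 1455, near the array median. These r values are the highest of 11628 over only 10 livers and were not compared with chance. The 2 rankings shared none of their 5 genes.

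Other steroid-handling genes were set beside the members, from 5 lists with 56 measured genes out of 69. Between Model and Normal livers 10 were higher and 5 lower, or 26.8%, beside 10.6% higher, 2.43% lower and 13.0% in all over all genes, and the median log2 difference was 0.25, beside 0.15 over all genes. The count fell to 8 when Model liver 4 or Normal liver 3, 4 or 5 was left out, and 1676 to 1965 of all genes were called in those fits. Between XKA and Model livers 0 of 56 were called, with 0.176% over all genes. Between XKA and Normal livers 3 were higher and 1 lower, or 7.14%, beside 5.53% higher, 1.95% lower and 7.48% in all over all genes, and 8 were called without XKA liver 1.

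In steroid reduction and the bile acid branch, 2 genes were higher and 3 lower of 9 in Model livers. Cyp39a1, the oxysterol hydroxylase of a side branch of bile acid synthesis, had signals of 1330 to 5651 in XKA, 896 to 2144 in Model and 12179 to 42462 in Normal livers. Its log2 difference from Normal was -3.45 for XKA (adjusted p = 2.71e-06) and -4.04 for Model (SE 0.36, adjusted p = 2.64e-07), and no KKAy liver reached the Normal range. Amacr, a racemase of bile acid side-chain oxidation, averaged 22222 in Model and 111489 in Normal livers (log2 difference -2.33, adjusted p = 0.00188). In the XKA group its signals were 17776, 152336, 107134, 19470 and 16536. XKA livers 2 and 3 were thus at or above the Normal range of 104380 to 122908, and XKA liver 3 is the liver with the high Akr1c12 signal. XKA liver 2 was at only 4694 for Akr1c12. Model liver 1, at 12618 for Akr1c12, was at 23303 for Amacr. Acox2, a peroxisomal oxidase of the same side chain, was higher in XKA (0.74, adjusted p = 0.00128) and in Model (1.11, adjusted p = 1.13e-05) than in Normal livers. Srd5a3, the other higher gene of this list, was at 0.79 between Model and Normal livers (adjusted p = 0.00447 with limma). With the mean of its probe sets it was at 0.16 (adjusted p = 0.671 with limma). Without cross-hybridising probe sets it was at 0.33 (adjusted p = 0.37 with limma). Akr1d1, the 5-beta-reductase that feeds the 3-alpha-hydroxysteroid dehydrogenases, differed by -1.06 between Model and Normal livers (adjusted p = 0.0347), and this call was lost in 7 of 15 fits that each left out 1 liver.

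In steroid synthesis, 0 of 12 measured genes were higher and 2 were lower in Model than in Normal livers, with Cyp17a1, a steroid 17-alpha-hydroxylase, at -3.25 (SE 0.53, adjusted p = 3.33e-04). Star, which carries cholesterol into mitochondria, was at -2.34 (adjusted p = 0.0293), a call lost in 7 of 15 such fits. With the mean of its probe sets Star was at -0.72 (adjusted p = 0.266 with limma). Model signals averaged 834 for Cyp17a1 and 576 for Star, below the array median, so neither difference is read as a size. Among 12 measured 17-beta-hydroxysteroid dehydrogenases 3 were higher and 0 lower, among them Hsd17b12 at 0.74 (adjusted p = 0.00132). Hsd17b6 was at 1.20 (adjusted p = 0.0113), but at 0.41 with the mean of its probe sets (adjusted p = 0.25). Hsd17b4 was the third, with a call lost in 7 of 15 such fits and on the deposited scale. Among 11 other aldo-keto reductases 3 were higher and 1, Akr1d1, was lower. The calls of Akr1a1 and Akr7a5 were lost in 10 and 9 of 15 such fits. Akr1b8, a relative of aldose reductase, was higher in XKA (1.11, adjusted p = 1.15e-04) and in Model (1.10, adjusted p = 8.88e-05) than in Normal livers. Among 13 conjugating enzymes 2 were higher and 0 lower, Ugt2b35, with a call lost in 7 of 15 such fits, and Ugdh, with a call lost in 6.

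As whole liver was measured, fewer cells of a type and less RNA per cell cannot be told apart. All 8 hepatocyte markers were above the array median in every group, with summed signals of 3580595 to 4582640 in XKA, 3665566 to 5901509 in Model and 3073741 to 5277018 in Normal livers. Adrenal cortex markers summed to 20034 to 37312 in XKA, 27777 to 44486 in Model and 26037 to 39129 in Normal livers. Stomach lining markers summed to 12905 to 18611 in XKA, 14033 to 17664 in Model and 9861 to 15662 in Normal livers. Both lists overlapped across the 3 groups, and their part in the member values was not tested. Per group, only 2 or 3 of 8 adrenal cortex markers and 2 to 4 of 8 stomach lining markers had a mean above the array median. The overlap of these sums thus says little about such tissue. Stellate cell markers summed to 59045 to 71062 in XKA, 84184 to 113015 in Model and 45446 to 62687 in Normal livers, so that Model was above both other groups, and their part in the member values was not tested.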

How the data were processed

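Liver RNA of 15 mice was measured on Affymetrix mouse arrays. The authors deposited 1 intensity value per probe set on a linear scale, with array medians of 127 to 182. The methods name median scaling to 1000 in ArrayTrack, so each array was scaled to that median here. The sources used here do not give how probes were summarised. The table held 45101 probe sets. A single symbol was annotated to 34958 of them, more than 1 to 932 and none to 9211. Leaving out control probes removed 13. Entrez identifiers matched 34741 to the reference. Each of 18193 genes was represented by its brightest probe set over all arrays. Log2 signals were fitted in R 4.3.3 with limma 3.58.1 (eBayes with trend, all arrays, no block), two-sided, with Benjamini-Hochberg adjusted p under 0.05. Single members were also compared by an exact permutation test of 5 against 5. The fit was tested on simulated data. Promoters came from RefSeq (GRCm38.p6) and were aligned with Biopython 1.88.

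The members, lists and tests were chosen with earlier results of these data known. Named genes were all members, up to 4 called genes per list and comparison with the largest change, 6 measured neighbours on each side and the 5 genes most like Akr1c18 by each measure. The acute phase list was added after the values were seen. Marker lists covered hepatocytes, macrophages, T cells, stellate cells, endothelial cells, bile duct cells, adipocytes, adrenal cortex and stomach lining. Macrophage markers summed to 123715 to 232139 in XKA, 153223 to 401858 in Model and 130668 to 239403 in Normal livers. Sums in XKA, Model and Normal livers were 3154 to 4187, 3649 to 5460 and 2715 to 5374 for T cells, 55986 to 92714, 73740 to 94212 and 52204 to 69063 for endothelial cells, 3189 to 4880, 3895 to 5919 and 3281 to 5717 for bile duct cells, and 183471 to 799073, 484968 to 868346 and 456305 to 664995 for adipocytes. The adipocyte sums were nearly all Car3, at 180062 to 864866. Adipoq, Retn and Lep were at 1577 or less in every liver, and 2 of 5 measured genes had a mean above the array median in each group.

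Each array is 1 mouse. The number of arrays limits the precision, and the median standard error of a log2 difference was 0.28. Alternatives were the deposited scale, quantile normalization, the mean of a gene's probe sets, every probe set on its own, no trend, array weights, a pseudocount of 100, filters on dim or cross-hybridising probe sets, a replicate block, Dunnett's test and leaving out single livers.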

Additional observations from a re-analysis of the deposited data

Results flagged for a closer look

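Of 21 combinations of a member and a group, 3 held a liver far from the other 4 by Dixon's test, which flags about 1 in 20 groups by chance. Akr1c12 was 48662 in XKA liver 3 and 3858 to 5445 in the other XKA livers. Akr1c12 was 12618 in Model liver 1 and 3240 to 5003 in the other Model livers. Akr1c14 was 89758 in XKA liver 1 and 212859 to 260490 in the other XKA livers. The causes were not tested.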

How the results depend on the processing

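Of the 7 members, 0 were called between XKA and Model livers under every alternative run. The number of all genes called between XKA and Model livers was 32, and 63 with the values as deposited, 113 after quantile normalization, 6 with the mean of probe sets, 4 without the intensity trend, 52 with array weights, 1 with Dunnett's test and 11 to 54 when single livers were left out. Between Model and Normal livers it was 2366, and 1266 with Dunnett's test and 1676 to 2789 with single livers left out. Between XKA and Normal livers it was 1361, and 828 with the mean of probe sets, 892 without the trend and 963 to 1454 with single livers left out. Of the steroid-handling genes, 15 were called between Model and Normal livers, and 8 with the mean of probe sets, 9 without the trend and 8 to 18 with single livers left out. Between XKA and Model livers 0 were called, and 1 after quantile normalization. Between XKA and Normal livers 4 were called, and 8 with the values as deposited, 7 after quantile normalization, 7 without dim genes, 9 with array weights, 9 without Model liver 3 and XKA liver 1, and 3 to 8 with single livers left out.

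Median scaling shifted the median log2 difference of all genes to 0.15 for Model minus Normal, against -0.04 as deposited. The calls between Model and Normal livers were 1924 higher and 442 lower, 1137 and 1027 as deposited, and 1602 and 1102 after quantile normalization. Between XKA and Normal livers they were 1006 higher and 355 lower, 703 and 780 as deposited, and 1021 and 805 after quantile normalization.

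Signs turned for Akr1c6 between Model and Normal livers on the deposited scale and after quantile normalization, for Akr1c6 between XKA and Normal livers with array weights (0.014), without XKA liver 1 (0.068) and without Model liver 3 and XKA liver 1 (0.068), for Akr1c12 between XKA and Model livers (-0.083 without XKA liver 3, with a range up to 0.94 over the livers left out), for Akr1c20 in the same comparison (-0.051 without Model liver 5, -0.089 without XKA liver 2 and -0.081 without XKA liver 3, with a range up to 0.263), Ugt2b35 between XKA and Normal livers as deposited (-0.01), and Akr7a5 with the mean of probe sets (-0.64 between XKA and Normal livers and -0.45 between Model and Normal livers). Of 962 tested values of single genes over the alternatives, 843 kept their direction and side of the threshold, and members against Normal livers had no test. The causes were not tested. Replicate numbers were not used as pairs in the main fit. Same-numbered livers correlated between -0.118 and 0.175, and only 2 of 15 best with their own number. Such correlations cannot show whether same-numbered livers were handled together. Ugt2b35 (adjusted p = 0.0617) and Akr1a1 (adjusted p = 0.0642) between Model and Normal livers missed the threshold with the replicate block in limma. With this block, 22 genes were called between XKA and Model livers, 2103 between Model and Normal livers and 0 members.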
